A study of Mus musculus with 3 samples.

Results

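The 7 genes of retinoid metabolism and response described here were *Rdh10*, *Dhrs3*, *Aldh1a3*, *Cyp26b1*, *Crabp2*, *Rarres1* and *Rarres2*. They were taken by name from the gene rows of 1 single cell expression table, and all 7 had a row among the 9781 rows kept. The table held cells from 3 mouse tissues labelled normal, with 1 library each: male urogenital sinus (UGS, the embryonic tissue that gives rise to prostatic buds) at E18.5, prostate at P14 and prostate at P35. Labels gave no genotype, strain or number of animals pooled, and named v3 chemistry where the study's methods name a v2 kit. Those methods describe mice of a mixed C57BL/6 and 129S1/SvImJ background and digestion of the tissue in medium that contained serum and dihydrotestosterone, an androgen. Cell barcodes ended in 1, 2 or 3, and no label tied an ending to a tissue. The study states a cell count for each tissue: that of the UGS equals the number of barcodes in the smallest set, those of the other tissues differ from the other sets, and cell numbers were not used to assign a set. Hence the endings are called barcode sets 1, 2 and 3, values are given set by set, and ages were not compared. As there was no replication, no p-values are given, and the 95% intervals throughout hold counting error alone.

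Retinoic acid is made from retinol (vitamin A), which is oxidised first to retinal and then to retinoic acid. It enters the nucleus on a carrier protein and acts through nuclear receptors that bind DNA at retinoic acid response elements, and it is cleared by cytochrome P450 enzymes. In the urogenital tract, retinoic acid is known to take part in the branching of epithelial buds and in the exchange of signals between epithelium and mesenchyme.

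Set 1 stood apart in depth. Its 766 cells had a median of 19357 UMIs (unique molecular identifiers, tags that count captured mRNA molecules once each). Sets 2 and 3 had 5350 and 8457 cells and medians of 1738 and 1788 UMIs. Sets 2 and 3 shared 13 barcodes, sets 1 and 2 shared 1, and sets 1 and 3 shared 0. Levels are given as CPM, the UMIs of a gene summed over the cells of a class and set, per 1000000 UMIs of all genes in those cells. The table was held in part, with rows from some chromosomes only, so that "all rows" below means the rows held and genes without a row were not analysed here.

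Cells were grouped into 13 clusters without the 7 genes among the clustering features, and clusters were named from marker lists. Clusters 1 and 4 were epithelium-like (113, 1402 and 2693 cells in sets 1, 2 and 3). Cluster 4 carried 11 of 11 epithelial markers, *Cldn3* among them, and cluster 1, led by *Lgals7* and *Sfn*, carried 7. Clusters 2 and 3 were fibroblast-like (361, 1672 and 2635 cells) and both carried 7 of 7 fibroblast markers. Cluster 3 is called the *Dpt* cluster after its leading gene. Cluster 2 is called the *Col15a1* cluster, although *Fgf21* and *Lamc3* led it and its type had a list of only 2 markers. Cluster 0 was smooth muscle-like (89, 1598 and 1947 cells) and was led by *Actg2*, *Car3* and *Tpm2*, with the striated muscle genes *Tnnt2*, *Tnnc2* and *Tnnt1* also among its 10 leading genes. Its smooth muscle markers summed to 4487 CPM in set 1, below its fibroblast markers there (5252 CPM), against 26256 and 25626 CPM in sets 2 and 3, and 7 of the 8 were above 0 in set 1. Smaller clusters were endothelium-like (330 cells), glia-like (448), leukocyte-like (240), pericyte-like (170), neuron-like (66) and mitotic (185). Clusters 6 and 11 stayed unnamed. Cluster 11 carried 11 of 11 epithelial markers and 1 of 10 leukocyte markers. Its 10 leading genes included *Wfdc15b*, *Ivl*, *Sprr2f* and *Upk1a*, but also the leukocyte marker *Cd52*. Epithelial markers summed to 4932, 5234 and 4574 CPM in it, and leukocyte markers to 1.17, 2798 and 2006 CPM.

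Across these classes, *Rdh10* was higher in fibroblasts than in epithelium and muscle, and *Aldh1a3* was lower in muscle than in epithelium and fibroblasts. The *Aldh1a3* gap between muscle and epithelium rested in part on a single cell in set 1. *Rarres2* was high in fibroblasts, muscle and glia and low in epithelium, and the muscle-like and glia-like cells also held fibroblast markers. Classes are called by these short names where the comparison is clear. *Crabp2* was abundant in set 1 and scarce in sets 2 and 3. *Dhrs3* was high in the epithelium-like cells of set 1 and low in those of sets 2 and 3. *Cyp26b1* and *Rarres1* were rare in nearly every class.

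**Figure D1:**
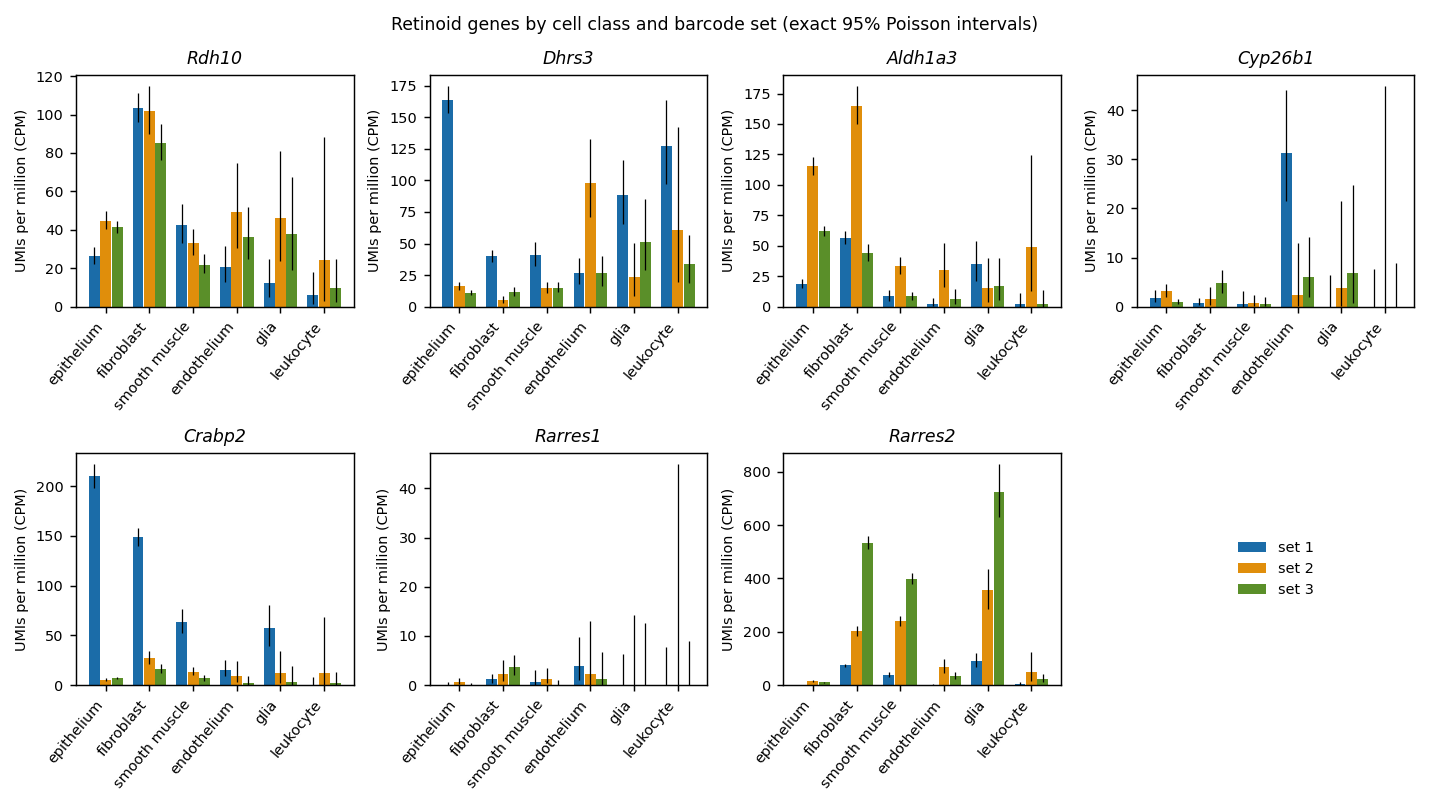
Levels of the 7 genes in 6 cell classes. Each bar is the CPM (UMIs per 1000000, linear axis from 0) of 1 class in 1 barcode set, with exact 95% Poisson intervals as black lines and sets 1 to 3 in different colours. Fibroblast-like *Rdh10* reached 104, 102 and 85.3 CPM, above the other 5 classes drawn in every set.

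The first comparison asked how many of the 7 genes differed by at least 2-fold between epithelium-like and fibroblast-like cells, taking genes with at least 10 UMIs in both classes together. In set 1, 2 of 6 genes were at least 2-fold higher in epithelium-like cells and 3 were at least 2-fold lower, beside 16.3% and 27.9% of all rows tested. In set 2, 2 of 7 were higher and 4 lower, beside 15.8% and 20.6% of all rows. In set 3, 0 of 7 were higher and 5 lower, beside 21.1% and 23.2% of all rows. Among those counted, *Cyp26b1* in sets 1 and 2 and *Rarres1* in set 2 had intervals that included equal levels. The number past 2-fold in either direction went from 5 to 3 in set 1 with cluster 11 counted as epithelium, from 6 to 3 in set 2 without integration, and from 5 to 2 in set 3 without cells of under 500 genes. The median log2 ratio of the genes tested was -0.54, -1.19 and -1.24 in sets 1, 2 and 3, against -0.21, -0.05 and 0.10 over all rows tested. More of these genes were past 2-fold on the lower than on the higher side in each set, as was also so over all rows.

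Between muscle-like and fibroblast-like cells, 0 of 5 genes were at least 2-fold higher in muscle-like cells and 3 were lower in set 1, beside 5.65% and 8.01% of all rows. In set 2, 1 of 6 was higher and 2 were lower, beside 11.1% and 11.4% of all rows. In set 3, 0 of 7 were higher and 5 lower, beside 13.4% and 16.7% of all rows. Of those 5, *Cyp26b1* and *Rarres1* rested on 2 and 0 UMIs in muscle-like cells, each set to 3. The third comparison set the *Dpt* cluster against the *Col15a1* cluster. There 1 of 5 genes was at least 2-fold higher and 1 lower in set 1, beside 8.78% and 18.8% of all rows. In set 2, 0 of 5 were higher and 0 lower, beside 6.30% and 5.26%. In set 3, 0 of 7 were higher and 3 lower, beside 7.05% and 6.42%. Among those 3, *Rarres1* (2 against 12 UMIs, with the 2 set to 3) had an interval that included equal levels. The split of the fibroblasts depended on the cells kept: among 721 cells of the *Dpt* cluster that stayed fibroblast-like when cells with under 500 genes were left out, 308 were again in a *Dpt* cluster and 413 joined the other one, while 678 of 680 cells of the *Col15a1* cluster stayed in a *Col15a1* cluster.

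**Figure D2:**
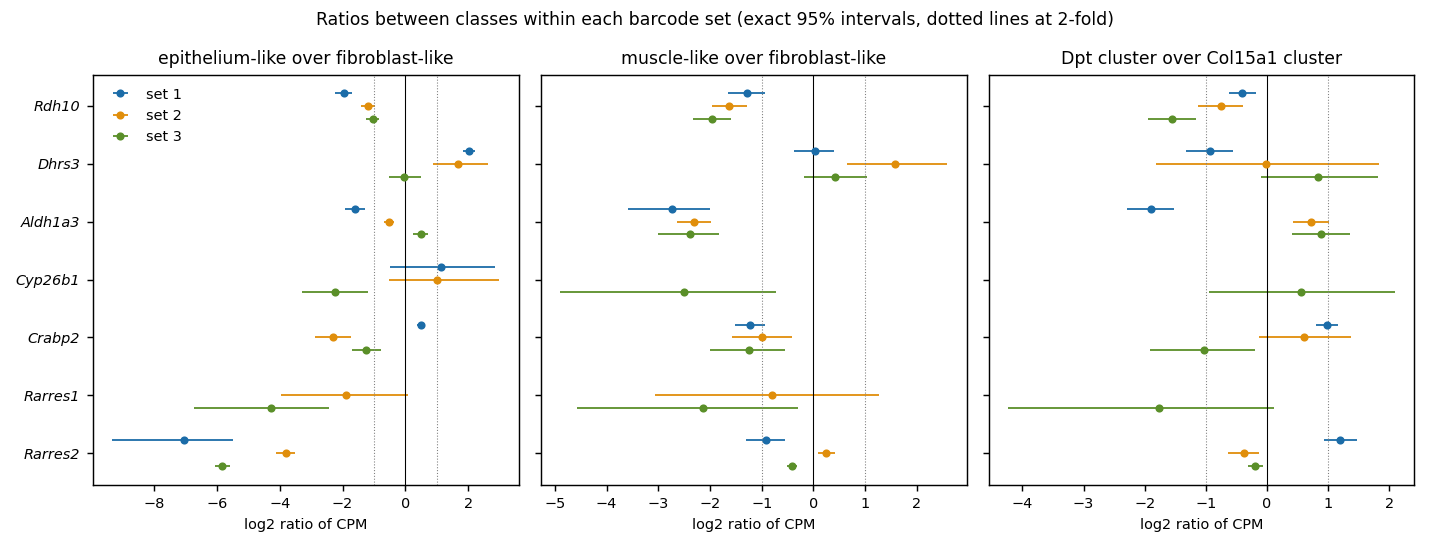
Log2 ratios of CPM for the 7 genes in the 3 comparisons, with exact 95% intervals as horizontal lines, 1 colour for each barcode set and dotted lines at 2-fold. Only genes with at least 10 UMIs over both classes are drawn, and a sum under 3 UMIs is set to 3. *Rdh10* lay left of 0 in all 3 panels and sets, and *Rarres2* lay farthest left among epithelium-like over fibroblast-like ratios.

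*Rdh10* (chr1:16105882-16132550 in GRCm38.p6) encodes a retinol dehydrogenase of the first, retinol to retinal step. Its level in fibroblast-like cells was 104 CPM in set 1 (96.3 to 111), 102 CPM in set 2 (90.1 to 115) and 85.3 CPM in set 3 (76.3 to 95.1). In epithelium-like cells it was 26.6, 44.7 and 41.4 CPM, and in muscle-like cells 42.5, 33.1 and 21.9 CPM. In each set, the interval of fibroblast-like cells lay above those of epithelium-like, muscle-like, endothelium-like, glia-like and leukocyte-like cells. Pericyte-like cells were an exception, at 41.6, 186 and 64.5 CPM from 12, 9 and 13 UMIs, and their intervals overlapped that of fibroblast-like cells in sets 2 and 3. Unnamed cluster 11 stood at 45.1%, 45.6% and 82.9% of the fibroblast-like level in sets 1, 2 and 3, so it came near that level in set 3. Epithelium-like cells were 3.90-fold lower than fibroblast-like cells in set 1 (log2 ratio -1.96, -2.23 to -1.70), 2.28-fold lower in set 2 (-1.19, -1.42 to -0.95) and 2.06-fold lower in set 3 (-1.04, -1.24 to -0.85). These were under 2-fold in set 2 without integration (-0.72), and in set 3 without cells of under 500 genes (-0.89) or with cluster 11 counted as epithelium (-0.97). Muscle-like cells were 2.44-fold, 3.08-fold and 3.89-fold lower (log2 ratio -1.29 in set 1, or -2.31 at clustering resolution 1.0). The order of muscle-like and epithelium-like cells was not the same in all sets: muscle-like cells were higher in set 1 (33.4 to 53.2 against 22.4 to 31.3 CPM) and lower in set 3 (17.3 to 27.4 against 38.3 to 44.7 CPM).

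Within the fibroblasts, *Rdh10* was at 116, 131 and 122 CPM in the *Col15a1* cluster and at 87.9, 77.4 and 41.8 CPM in the *Dpt* cluster. The *Dpt* cluster was thus lower in every set, by 1.32-fold, 1.69-fold and 2.93-fold, with intervals that excluded equal levels. In set 2 this direction turned when cells with under 500 genes were left out (log2 ratio 0.49). Within the epithelium, cluster 4 exceeded cluster 1 in set 2 (65.2 against 29.1 CPM), and their ratio had an interval that included equal levels in sets 1 and 3. Shares of cells with at least 1 *Rdh10* UMI depend on depth, and were 64.5%, 12.0% and 9.53% of fibroblast-like cells (median 15977, 1254 and 1329 UMIs) against 48.7%, 18.4% and 16.7% of the deeper epithelium-like cells (41580, 4064 and 3451 UMIs). After thinning cells to 900 UMIs, which left out 7, 342 and 693 shallower cells of sets 1, 2 and 3, the shares were 12.3%, 7.81% and 6.73% against 2.68%, 3.95% and 3.47%. Leukocyte-like cells held the fewest, with 3, 2 and 4 UMIs in all. Fibroblast-like cells thus had the larger share in all 3 sets after thinning, and in set 1 alone before it.

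*Dhrs3* (chr4:144892534-144928209) encodes a short-chain reductase that turns retinal back to retinol, and is known to be induced by retinoic acid. Epithelium-like cells had 164 CPM in set 1 (153 to 175), 16.2 CPM in set 2 (13.5 to 19.2) and 11.1 CPM in set 3 (9.55 to 12.9). Fibroblast-like cells had 40.1, 5.0 and 11.4 CPM. Epithelium-like cells were therefore 4.09-fold higher in set 1 (log2 ratio 2.03, 1.84 to 2.23) and 3.23-fold higher in set 2 (1.69, 0.87 to 2.64), the latter against only 13 UMIs in fibroblast-like cells. In set 3 the interval of the ratio included equal levels (-0.03, -0.52 to 0.49). In thinned cells the ratio of set 1 was 1.33.

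Other classes with *Dhrs3* were leukocyte-like cells, at 127, 61.0 and 33.9 CPM from 61, 5 and 14 UMIs, and glia-like cells, at 88.4, 23.2 and 51.5 CPM. Endothelium-like cells had 26.6 CPM in set 1, 98.1 CPM in set 2 (70.7 to 133) and 26.7 CPM in set 3, so that in set 2 they exceeded epithelium-like, fibroblast-like and muscle-like cells. Muscle-like cells had 40.8, 14.9 and 15.2 CPM. They did not differ from fibroblast-like cells beyond counting error in sets 1 and 3, and were 2.97-fold higher in set 2 (log2 ratio 1.57, 0.66 to 2.59). Of the 2 epithelial clusters, cluster 4 exceeded cluster 1 in set 1 (178 against 85.7 CPM), and the intervals of their ratio included equal levels in sets 2 and 3. *Dhrs3* thus had no class at which it was highest in every set.

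*Aldh1a3* (chr7:66390892-66427477) encodes a retinal dehydrogenase, which forms retinoic acid. Fibroblast-like cells had 56.6 CPM in set 1 (51.2 to 62.5), 165 CPM in set 2 (150 to 182) and 44.1 CPM in set 3 (37.7 to 51.3). Epithelium-like cells had 18.8 CPM (15.4 to 22.9), 115 CPM (108 to 123) and 61.9 CPM (58.1 to 66.0). The lead of the fibroblasts held in set 1 (log2 ratio of epithelium over fibroblast -1.59, -1.92 to -1.27) and in set 2 (-0.52, -0.68 to -0.35), and the order was the opposite in set 3 (0.49, 0.25 to 0.74). This small difference in set 3 was not seen when every cell counted equally, at a ratio of -0.09. Equal weighting also changes the balance of the 2 epithelial clusters. Cluster 4 was deeper than cluster 1 there (median 6776.5 against 2692 UMIs), so depth and cluster cannot be told apart. The ratio of set 2 was 0.11 without integration of the sets. In set 1, a single cell supplied 40.2% of the 102 *Aldh1a3* UMIs of epithelium-like cells, and the ratio was -2.17 without the top cell of each class, -2.64 with cells weighted equally and -0.89 with cluster 11 counted as epithelium. That of set 2 was -1.10 in thinned cells.

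Muscle-like cells had little *Aldh1a3* in every set, at 8.49, 33.4 and 8.44 CPM. They were lower than fibroblast-like cells by 6.67-fold (log2 ratio -2.74, -3.59 to -2.00), 4.94-fold (-2.31, -2.63 to -1.99) and 5.23-fold (-2.39, -3.00 to -1.82). The ratio of set 1 was -1.01 in thinned cells and that of set 2 was -3.59 at clustering resolution 1.0. Endothelium-like cells were at 1.90, 30.4 and 6.07 CPM, from 2, 13 and 5 UMIs. Thus the muscle-like and endothelium-like classes, whose intervals overlapped in each set, stood below both epithelium-like and fibroblast-like cells. In set 1 the epithelium-like level rested in part on the single cell named above, and its order against muscle without that cell was not tested.

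*Aldh1a3* was uneven within the epithelium. In cluster 4 it was at 21.5, 178 and 94.0 CPM, and in cluster 1 at 3.73, 67.9 and 18.7 CPM. Cluster 4 was 2.62-fold higher in set 2 (log2 ratio 1.39, 1.19 to 1.59) and 5.02-fold higher in set 3 (2.33, 2.06 to 2.61). Its 5.77-fold higher level in set 1 (2.53, 0.94 to 4.83) rested on 3 UMIs in cluster 1 and 99 in cluster 4, 41 of them from 1 cell. Unnamed cluster 11, the other cluster with all epithelial markers, was higher still, at 67.8 CPM (56.0 to 81.3), 300 CPM (240 to 372) and 173 CPM (150 to 197). In set 1, 34.5% of the UMIs in cluster 11 came from 1 cell. The 2 epithelial clusters differed in depth, with medians of 31249.5, 3472 and 2692 UMIs in cluster 1 and 47535, 6961 and 6776.5 UMIs in cluster 4. Among cells thinned to 900 UMIs, without shallower ones, 1.14%, 12.0% and 8.09% of cluster 4 cells had an *Aldh1a3* UMI against 0%, 4.61% and 0.991% of cluster 1 cells, where the 0 of 24 cells in set 1 has an exact upper bound of 14.2%.

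The fibroblast clusters did not keep 1 order for *Aldh1a3*. The *Dpt* cluster had 22.5 CPM in set 1, 201 CPM in set 2 and 58.5 CPM in set 3, and the *Col15a1* cluster had 84.1, 122.6 and 31.8 CPM. The *Dpt* cluster was 3.74-fold lower in set 1, and 1.64-fold and 1.84-fold higher in sets 2 and 3. Without cells of under 500 genes, the log2 ratios of sets 2 and 3 turned to -0.51 and -0.23.

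**Figure D3:**
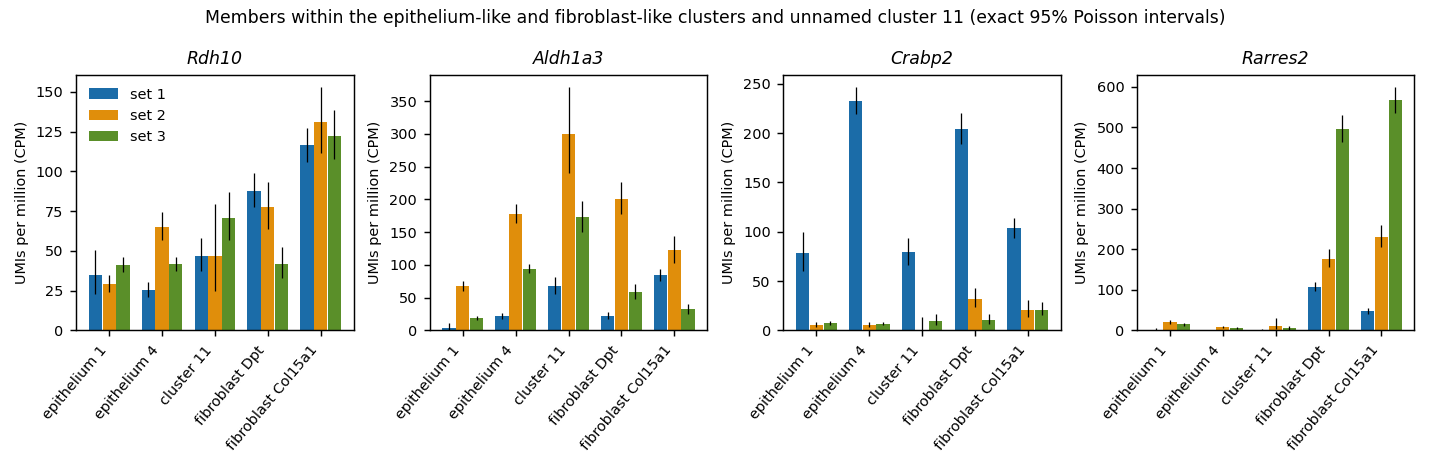
Levels of 4 genes in the 2 epithelium-like clusters, unnamed cluster 11 and the 2 fibroblast-like clusters. Bars give CPM on a linear axis from 0 for each barcode set and black lines the exact 95% Poisson intervals. *Aldh1a3* was higher in cluster 4 than in cluster 1 in all 3 sets, and *Rdh10* was higher in the *Col15a1* cluster than in the *Dpt* cluster.

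*Cyp26b1* (chr6:84571414-84593908) encodes a cytochrome P450 enzyme that breaks down retinoic acid. It was rare, with 53, 35 and 50 UMIs in all cells of sets 1, 2 and 3. Endothelium-like cells of set 1 held 33 of those 53 UMIs, a level of 31.3 CPM (21.6 to 44.0), with a UMI in 26.3% of 38 cells. A single cell supplied 54.5% of the 33 UMIs. Endothelium-like cells of sets 2 and 3 had 1 and 5 UMIs, at 2.34 and 6.07 CPM, so the high level of set 1 did not appear there. In set 1, epithelium-like cells had 1.85 CPM, fibroblast-like cells 0.849 CPM and muscle-like cells 0.566 CPM.

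In set 3, epithelium-like cells were 4.70-fold lower than fibroblast-like cells for *Cyp26b1* (16 and 18 UMIs, log2 ratio -2.23, -3.30 to -1.18), whereas the ratios of sets 1 and 2 lay above 2-fold in the other direction with intervals that included equal levels. Leukocyte-like cells had 0 UMIs in all sets, which allowed up to 7.69, 45.0 and 8.93 CPM.

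*Crabp2* (chr3:87948693-87953372) encodes the cellular protein that carries retinoic acid to its nuclear receptor. Over all cells it was at 125 CPM in set 1 (120 to 130), 11.2 CPM in set 2 (9.59 to 12.9) and 7.89 CPM in set 3 (6.87 to 9.01). Its level was 210, 5.47 and 6.83 CPM in epithelium, 148, 26.9 and 16.1 CPM in fibroblasts and 63.4, 13.6 and 6.75 CPM in muscle. The difference in level between set 1 and the other sets was seen in all 3 classes, and tissue, depth and library cannot be told apart as its source. Thinned to 900 UMIs, 25.0% of epithelium-like cells had a *Crabp2* UMI in set 1, against 0.574% and 0.603% in sets 2 and 3.

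The order of epithelium and fibroblast for *Crabp2* also differed between sets. Epithelium-like cells were 1.41-fold higher in set 1 (log2 ratio 0.50, 0.38 to 0.62), 4.93-fold lower in set 2 (-2.30, -2.88 to -1.74) and 2.36-fold lower in set 3 (-1.24, -1.70 to -0.76). In thinned cells the ratios of sets 1 and 2 were 1.33 and -1.56. The ratio of set 1 was smaller at clustering resolution 1.0 (0.15), with cluster 11 counted as epithelium (0.27) and without cells of under 500 genes (0.33), where that of set 3 was -0.69 (-1.46 to 0.18). Muscle-like cells were lower than fibroblast-like cells in every set, by 2.34-fold, 1.99-fold and 2.39-fold. This was not so in every reading, since the log2 ratio of set 1 was -0.03 in thinned cells (-2.39 at clustering resolution 1.0) and that of set 3 was -0.32 without cells of under 500 genes. Within set 1, cluster 4 (233 CPM) exceeded cluster 1 (78.2 CPM) by 2.97-fold, and the *Dpt* cluster (204 CPM) exceeded the *Col15a1* cluster (103 CPM) by 1.98-fold. In set 3 the *Dpt* cluster was instead 2.04-fold lower, from 18 and 43 UMIs, and this ratio turned to 0.59 on the log2 scale without cells of under 500 genes. Leukocyte-like cells held 0, 1 and 1 *Crabp2* UMIs.

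*Rarres1* and *Rarres2* are named as genes that respond to retinoids. *Rarres1* (chr3:67478886-67515523) encodes a membrane protein related to latexin. It had 15, 18 and 22 UMIs in sets 1, 2 and 3 in all. Fibroblast-like cells held 8, 6 and 14 of these (1.13, 2.31 and 3.70 CPM), and epithelium-like cells 0, 5 and 1. Muscle-like cells had 0 UMIs in set 3 against 14 in fibroblast-like cells, and so were at least 4.38-fold lower when the 0 was set to 3 UMIs. The counting interval of that log2 ratio ran from -4.57 to -0.29, and without cells of under 500 genes the ratio was -0.23. For epithelium-like cells of set 3, the single UMI gave a log2 ratio of -5.87 (-11.3 to -3.15) as counted and of -4.28 at 3 UMIs. The highest level was that of neuron-like cells in set 3, at 21.4 CPM (6.94 to 49.9), from 5 UMIs in 19 cells. Between the fibroblast clusters, the *Dpt* cluster held 7, 6 and 2 *Rarres1* UMIs and the *Col15a1* cluster 1, 0 and 12, so that the cluster with more UMIs was not the same in every set.

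As a gene named for its response to retinoids, *Rarres1* is shown with its promoter, the 250 bases before the RefSeq transcription start (chr3:67515524-67515773 in GRCm38.p6, minus strand, 5′ to 3′). Capitals mark 1 match to a receptor binding motif of retinoic acid response elements, GGGTCA, read on the opposite strand and starting 82 bases before the transcription start.
Rarres1: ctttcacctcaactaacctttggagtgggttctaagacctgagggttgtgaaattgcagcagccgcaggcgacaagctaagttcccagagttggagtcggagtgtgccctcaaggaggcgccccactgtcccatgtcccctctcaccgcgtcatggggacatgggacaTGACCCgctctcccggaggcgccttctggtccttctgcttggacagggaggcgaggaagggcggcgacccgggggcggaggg
Windows of 300 bases were searched on both strands for AGGTCA, held by 16.3% of 32851 RefSeq promoters, for AGTTCA, held by 14%, for GGGTCA, held by 13.7%, and for GGTTCA, held by 10.4%. At least 1 of them was in 43.7% of promoters. Pairs of these motifs in direct repeat with a spacer of 1, 2 or 5 bases, found in 0.222%, 0.268% and 0.0974% of promoters, did not occur in the *Rarres1* window. The *Cyp26b1* window and the 3 *Dhrs3* windows held 0 of these motifs. These matches describe letters only. The promoters of the other 4 genes were not analysed here.

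*Rarres2* (chr6:48569696-48572845) encodes chemerin, a secreted protein that attracts immune cells through the receptor encoded by *Cmklr1*. Fibroblast-like cells had 73.5 CPM in set 1 (67.3 to 80.1), 202 CPM in set 2 (185 to 220) and 535 CPM in set 3 (512 to 558). Muscle-like cells had 39.1 CPM (30.4 to 49.4), 240 CPM (223 to 258) and 399 CPM (379 to 420). Glia-like cells had 91.9 CPM (68.8 to 120), 356 CPM (287 to 436) and 725 CPM (630 to 829), above fibroblast-like cells in sets 2 and 3 by intervals that did not overlap, with overlap in set 1. In pericyte-like cells the levels were 69.3, 165 and 447 CPM. *Rarres2* was thus present in 4 classes other than epithelium in each set, and in each of them set 1 had the lowest and set 3 the highest level.

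Epithelium-like cells were the opposite, with 0.370 CPM from 2 UMIs in set 1, 14.4 CPM in set 2 (11.9 to 17.3) and 9.43 CPM in set 3 (7.98 to 11.1). The log2 ratio to fibroblast-like cells was -7.64 as counted in set 1 (-10.7 to -5.78, or -7.05 with the 2 UMIs set to 3). It was -3.81 in set 2 (-4.11 to -3.51), a 14-fold difference, and -5.83 in set 3 (-6.08 to -5.58), a 56.7-fold difference. Without integration these were -4.74 and -5.05, and without cells of under 500 genes -4.43 and -6.44. In thinned cells the ratio of set 1 was only -0.90, with the 0 *Rarres2* UMIs left in epithelium set to 3. With cells thinned to 900 UMIs, 0%, 1.01% and 0.829% of epithelium-like cells had a *Rarres2* UMI (the 0 of 112 cells has an exact upper bound of 3.24%) against 4.74%, 16.3% and 36.4% of fibroblast-like cells. Before thinning, the shares were 1.77%, 6.56% and 3.90% against 51.5%, 24.8% and 48.7%. Endothelium-like cells had 0, 67.7 and 32.8 CPM, and leukocyte-like cells had 2.09, 48.8 and 21.8 CPM from 1, 4 and 9 UMIs. In set 2, smooth muscle markers summed to 4235 CPM in endothelium-like cells, beside 3985 CPM for endothelium markers. In leukocyte-like cells of set 2 they summed to 6550 CPM, beside 3440 CPM for leukocyte markers. Fibroblast markers summed to 1565 and 1635 CPM in these 2 classes of set 2. The part of such markers in these *Rarres2* levels was not tested.

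Markers of fibroblasts were present in these classes as well. In epithelium-like cells, the 7 fibroblast markers stood at 0.835% to 4.54% of their fibroblast-like level in set 1, 3.89% to 22.7% in set 2 and 0.795% to 11.4% in set 3, and *Rarres2* stood at 0.503%, 7.15% and 1.76%. *Rarres2* was thus below all 7 markers in set 1. In set 2 it was above 5 of them (3.89% to 5.38%) and below *Col6a3* (7.80%) and *Dcn* (22.7%), and in set 3 it was above 6 (0.795% to 1.51%) and below *Dcn* (11.4%). The part of carried-over RNA in these values was not tested. In glia-like cells, *Rarres2* stood at 125%, 176% and 136% of its fibroblast-like level, while the 7 markers stood at 3.11% to 40.2%, 9.73% to 60.0% and 10.8% to 47.9%. All 7 markers were below *Rarres2* there in each set. Even so, they summed to 1633.5, 5980 and 5114 CPM in glia-like cells, beside 6094, 4534 and 5056 CPM for the glia markers. Smooth muscle markers summed to 860, 3955 and 2755 CPM there. The part of either in the *Rarres2* level of glia-like cells was not tested.

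**Figure D4:**
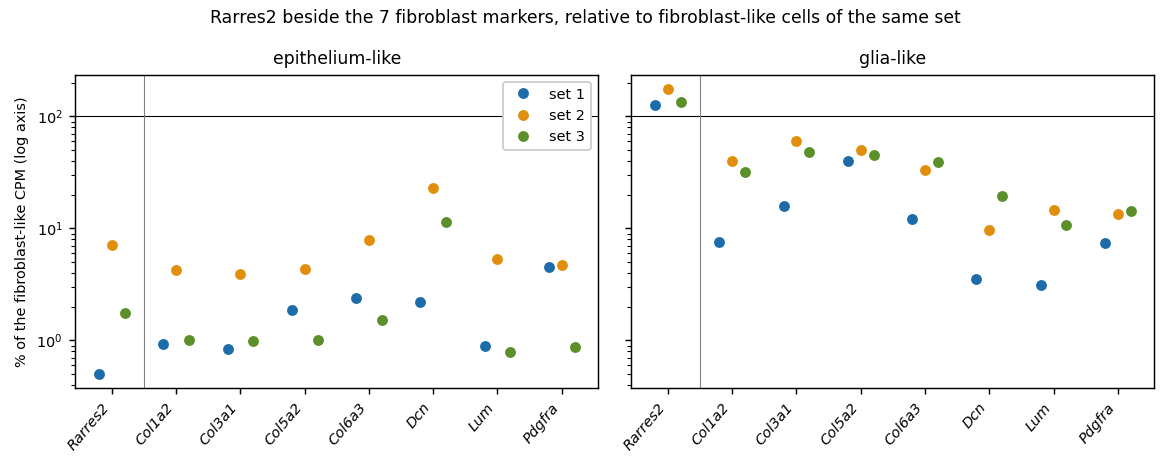
*Rarres2* and the 7 fibroblast markers in epithelium-like and glia-like cells, as a percent of the CPM of fibroblast-like cells in the same barcode set (log axis, black line at 100%). In glia-like cells *Rarres2* lay at 125% to 176%, above every fibroblast marker, and in epithelium-like cells it lay at 0.503% to 7.15%.

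Muscle-like and fibroblast-like cells differed little in *Rarres2*, by 1.88-fold lower in set 1 (log2 ratio -0.91, -1.30 to -0.55), 1.19-fold higher in set 2 (0.25, 0.09 to 0.41) and 1.34-fold lower in set 3 (-0.42, -0.52 to -0.32). The 7 fibroblast markers summed to 5252, 4895 and 3034 CPM in muscle-like cells and to 15738, 16006 and 16951 CPM in fibroblast-like cells, and their part in the *Rarres2* level of muscle-like cells was not tested. Within the fibroblasts, the *Dpt* cluster was 2.30-fold higher in set 1 (107 against 46.5 CPM), and 1.31-fold and 1.14-fold lower in sets 2 and 3. Without cells of under 500 genes, the log2 ratios of sets 2 and 3 turned to 0.71 and 0.56. Within the epithelium, cluster 1 exceeded cluster 4 at 19.7 against 7.47 CPM in set 2 and 14.4 against 5.73 CPM in set 3. The fibroblast markers moved with it, at sums of 2149.6 against 765 CPM in set 2 and 1754 against 298 CPM in set 3, and their part was not tested.

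Of 50 other retinoid genes listed, 22 had a row. Between epithelium-like and fibroblast-like cells, 6 of 16 tested were at least 2-fold higher and 2 lower in set 1 (all rows, 16.3% and 27.9%). In set 2, 1 of 12 was higher and 2 were lower (15.8% and 20.6%), and in set 3, 4 of 15 were higher and 4 lower (21.1% and 23.2%). The epithelium-like level of *Adh1*, an alcohol dehydrogenase that oxidises retinol, was 127, 9.45 and 24.6 CPM, which in set 1 was 16.7-fold above that of fibroblasts (log2 ratio 4.06, 3.66 to 4.49). Its ratios in sets 2 and 3 were 0.81 (-0.02 to 1.75) and 0.22 (-0.13 to 0.59). Like *Aldh1a3*, *Adh1* was higher in cluster 4 than in cluster 1 in all sets, by 4.29-fold, 11.2-fold and 5.15-fold. *Fabp5*, a fatty acid binding protein that can also carry retinoic acid, was 1.25-fold, 2.01-fold and 5.56-fold higher in epithelium-like cells. *Fabp5* thus leaned to epithelium in every set, also in sets 2 and 3, where *Crabp2* was lower there.

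*Tgm2*, tissue transglutaminase, which is known to be induced by retinoic acid, favoured fibroblast-like over epithelium-like cells in every set, with log2 ratios (epithelium over fibroblast) of -4.77, -2.06 and -1.40. In muscle-like cells it was 1.63-fold, 1.58-fold and 2.01-fold higher than in fibroblast-like cells. *Hoxa5*, *Hoxd4* and *Hoxa3*, homeobox genes known to respond to retinoic acid, had 52, 42 and 22 UMIs in the epithelium of set 1 against 2, 13 and 12 in its fibroblasts, at least 2-fold higher levels for each. The other sets did not show this: *Hoxa5* had log2 ratios of -0.05 and 0.71 in sets 2 and 3 with intervals that included equal levels, *Hoxa3* had one of -0.89 in set 3, and *Hoxd4* had 3 against 0 and 9 against 0 UMIs, too few for a ratio. The *Cmklr1* UMIs numbered 1, 1 and 0 in epithelium and 21, 8 and 10 in fibroblasts. Between muscle-like and fibroblast-like cells, 0 of 13 of these genes were at least 2-fold higher and 2 lower in set 1 (all rows, 5.65% and 8.01%), 0 of 11 and 4 in set 2 (11.1% and 11.4%), and 3 of 13 and 4 in set 3 (13.4% and 16.7%). Between the *Dpt* and *Col15a1* clusters, 2 of 13 were higher in set 1 (all rows, 8.78%), 1 of 9 in set 2 (6.30%) and 3 of 10 in set 3 (7.05%), and 0 were lower in each set (18.8%, 5.26% and 6.42%). *Adh1* was among the higher genes in all 3 sets, at log2 ratios of 1.43, 1.63 and 1.04, of which that of set 2 had an interval that included equal levels.

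Likeness of pattern was measured as the Pearson correlation of log2(CPM + 5) over 34 points, each a cluster in a barcode set with at least 20 cells. Points of 1 set share a library and a depth, so the values are descriptions. Among rows with at least 200 UMIs, *Rarres2* was most like *Fxyd1* (r = 0.95), *Adamtsl1* (0.92) and *Serping1* (0.90). *Crabp2* was most like *Zfp618* (0.84), *Cdkn1c* (0.82) and *Plag1* (0.81). *Dhrs3* was most like *Mrps35*, *Cdc26* and *Prr12* (0.78, 0.78 and 0.74), *Rdh10* most like *Plat*, *Ptp4a1* and *Tac1* (0.74, 0.73 and 0.70), and *Aldh1a3* most like *S100a3*, *Crls1* and *Ppa1* (0.73, 0.70 and 0.69). The rarest genes had the weakest likeness, *Cyp26b1* with *Htra1*, *Dock1* and *Pir* (0.63, 0.60 and 0.58) and *Rarres1* with *Tfpi2*, *Fam13c* and *Tcf15* (0.71, 0.69 and 0.67). Among pairs of the 7 genes themselves, r over the 34 points ran from -0.58 for *Rdh10* with *Dhrs3* to 0.52 for *Rdh10* with *Aldh1a3*. Within sets 1, 2 and 3, over 10, 12 and 12 clusters, the first was -0.45, -0.68 and -0.53 and the other 0.57, 0.19 and 0.57.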

How the data were processed

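Tissues were dissociated with collagenase and TrypLE, and the submitters' processing notes name Cell Ranger 3.1.0 and mm10. The deposited table holds natural log values (0 to 7.94), which match ln(1 + 10000 × UMIs / total UMIs of the cell). Recovered from these, UMIs were whole to within 0.05 for all 11120281 values over 0. The design had foreseen counts. Total UMIs were 20511786, 15929745 and 27444044 in sets 1, 2 and 3, of which the rows held 52.7%, 50.4% and 49.4%. The table was held in part, with 9784 rows from some chromosomes only, and of these 1 row not filled for every cell and 2 rows sharing a name were left out. The 14573 cell columns name no sample, so they were treated as pooled. Cells with under 200 genes (97, set 3) were left out.

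Clusters were made in Seurat 5.3.0 (R 4.3.3) after integration over 20 dimensions with 2000 features, cell cycle regression and 30 principal components, at resolution 0.5. To carry a marker, a cluster needed a UMI in 10% of its cells and 2 times the CPM of the median cluster (floored at 1). It was named from at least 3 carried markers. Where several classes had 3, the class had to carry 2 times the share of the next or alone hold 3 of the 10 leading genes, and a class with more leading markers than the named one, or epithelial markers in a stromal cluster, left it unnamed. The scoring was set after clustering. Scrublet in scanpy 1.11.5 put 3, 0 and 0 cells over its threshold, and no cell was removed. Intervals are exact (Poisson, Clopper-Pearson and, for ratios, the binomial split of both sums). In ratios a sum under 3 UMIs was set to 3. The steps were tested on simulated data. Genes named are the 7 genes, a list of other retinoid genes, marker genes and the 3 rows most like each gene. All of these, and the comparisons, were chosen with earlier results of these data known. Promoters came from RefSeq (GRCm38.p6), where 3 of the 7 genes matched.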

Additional observations from a re-analysis of the deposited data

Results flagged for a closer look

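For the 7 genes, a ratio between classes in 6 cases pointed one way in 1 barcode set and the other way in another, with 95% counting intervals that excluded equal levels on both sides. The sets are barcode endings and not the study's groups, the difference between sets was not tested, and values are log2 ratios.

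For epithelium-like over fibroblast-like cells, *Crabp2* was at 0.50 in set 1 (0.15 at clustering resolution 1.0) and at -2.30 and -1.24 in sets 2 and 3. *Aldh1a3* was at -1.59 and -0.52 in sets 1 and 2 and at 0.49 in set 3. Its sign in set 2 turned without integration and in mean deposited values, and its sign in set 3 turned with cells weighted equally. For muscle-like over fibroblast-like cells, *Rarres2* was at -0.91 in set 1, 0.25 in set 2 and -0.42 in set 3.

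Between the *Dpt* and *Col15a1* clusters, *Aldh1a3* was at -1.90 in set 1 and at 0.71 and 0.88 in sets 2 and 3. *Crabp2* was at 0.98 in set 1 and -1.03 in set 3. *Rarres2* was at 1.20 in set 1 and at -0.38 and -0.19 in sets 2 and 3. In sets 2 and 3 these cluster ratios changed sign without cells of under 500 genes.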

How the results depend on the processing

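No paired analysis was possible because columns carry no replicate and every group is 1 library. Of 10 alternatives, 7 gave all 55 log2 ratios, equal weighting gave 54, no integration 27 and cluster 11 as epithelium 20. Of the alternatives, 2 (cluster 11 as epithelium, and each class without the cell with the most UMIs of the gene) were chosen after seeing the data. Of 43 ratios with an interval off 0, 35 kept their direction under each alternative that gave them. Without cells of under 500 genes, ratios of the *Dpt* over the *Col15a1* cluster turned to 0.49 (*Rdh10*), -0.51 (*Aldh1a3*) and 0.71 (*Rarres2*) in set 2 and to -0.23 (*Aldh1a3*), 0.59 (*Crabp2*) and 0.56 (*Rarres2*) in set 3. Epithelium over fibroblast for *Aldh1a3* turned to 0.11 without integration and to a difference of 0.00485 in mean deposited values in set 2, and to -0.091 with cells weighted equally in set 3. Of 70 recomputed counts of genes past 2-fold, 62 stayed within 1.5 times. For epithelium over fibroblast the others were 3 of a former 5 with cluster 11 (set 1), 3 of 6 without integration (set 2) and 2 of 5 without cells of under 500 genes (set 3). For muscle over fibroblast they were 5 in place of 3 without integration (set 2) and 3 in place of 5 both without cells of under 500 genes and with cells thinned to 900 UMIs (set 3). Between the fibroblast clusters, thinning gave 4 in place of 2 (set 1) and 1 in place of 0 (set 2). The cause was not tested. Without integration, set 1 and the fibroblast clusters had under 20 cells in a class and were not run. *Cyp26b1* and *Rarres1* had 138 and 55 UMIs in all, so at this depth their ratios rest on few molecules.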

Other observations

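In the smaller classes, *Rbp7*, a retinol binding protein known from endothelium, had 39 of its 40 UMIs of set 3 in 196 endothelium-like cells (47.4 CPM, 33.7 to 64.7), 4 of 6 in set 2 and 3 of 5 in set 1. *Cmklr1*, the chemerin receptor gene, had its highest level in leukocyte-like cells among the classes compared in set 1, at 27.1 CPM (14.4 to 46.4) from 13 of 58 UMIs (21 were in fibroblast-like cells, at 2.97 CPM), and endothelium-like cells of that set had 10.4 CPM (5.22 to 18.7), an interval that overlapped. Leukocyte-like cells of sets 2 and 3 had 0 and 1 *Cmklr1* UMIs.

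*Hoxa5* was at 37.0 CPM (26.3 to 50.6) in endothelium-like cells of set 1, above the 9.61 CPM (7.18 to 12.6) of epithelium-like cells. *Lrat*, which stores retinol as ester, had 21 of its 30 UMIs of set 3 in fibroblast-like cells, and 0 UMIs in all cells of set 2.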
